A study of Homo sapiens and Mus musculus with 28 samples.

Results

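A group of 10 immediate early genes was followed through the SCC1 libraries, namely FOS, FOSB, FOSL1, JUN and JUNB of the AP-1 family, EGR1, EGR2 and EGR3, ATF3 and IER3. They were listed by symbol, with earlier results of these data known, and each matched 1 row of the count tables, so that they make up 10 of 35135 gene IDs. SCC1 is an established human line of head and neck squamous cell carcinoma, in which the study removed REXO4, an RNA exonuclease, and measured the transcriptome. Polyadenylated RNA was sequenced from 24 SCC1 libraries in 8 groups of 3. The split into a knockout and an iR4 experiment was made here from the group names, since the sample titles name no experiment. The knockout experiment (15 libraries) comprised Ctrl_Vehicle, the control cells with vehicle, the REXO4 knockouts R4KO_1 and R4KO_2 with vehicle (R4KO_1_Vehicle, R4KO_2_Vehicle), and KO_2 cells with H-151 (KO_2_H151) or BX-795 (KO_2_BX_795). H-151 binds STING, an adaptor of cytosolic DNA sensing, covalently and blocks it. BX-795 blocks the STING effector kinase TBK1 and several other kinases. The iR4 experiment (9 libraries) comprised Vehicle, iR4 and H151_iR4, where the labels give iR4 without an expansion and the last group carries H-151 beside it. The sources used here do not state doses, times, the vehicle, or whether a knockout is 1 clone. Nothing in the labels says that the 3 libraries of a group came from separate cultures, so p-values measure the spread between these libraries, which may be technical. Whether a lower level reflects fewer expressing cells or less RNA per cell cannot be told apart in bulk RNA.

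Immediate early genes are transcribed within minutes of a stimulus from factors that are already in the cell, and most of their mRNAs are short-lived. FOS and JUN proteins pair through leucine zippers into the AP-1 factor, while EGR proteins bind GC-rich sites through zinc fingers and ATF3 joins the bZIP network as a stress-induced partner. Growth factor signalling through ERK and serum response factor (SRF) drives FOS and the EGR genes, whereas JUN and ATF3 also answer to the stress kinases JNK and p38 and to the integrated stress response. In squamous cells AP-1 is known for control of keratinocyte differentiation, proteases and inflammatory genes.

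The sequences next to the transcription starts are shown for EGR1, EGR2, JUN and ATF3, each with 1 of 2 elements known for these inputs. RefSeq (GRCh38.p14) gave starts for 7 of the 10 members, 3 for EGR2, 2 for ATF3 and 1 for each of the others, and the 250 bases before each were searched on both strands. FOSL1, EGR3 and IER3 are named only. The CArG box, the element that SRF binds, was found in EGR1, beginning 105 and 83 bases before the start, and in EGR2, beginning 71 bases before 1 of its 3 starts, against 1.16% of 35116 promoters of the same length. The octamer TGACATCA, a variant of the cyclic AMP response element through which JUN and ATF2 act on the JUN promoter, was found in JUN 67 bases before the start and in ATF3 123 bases before 1 of its 2 starts, against 2.37% of promoters. TATAAA lay 33 bases before the start of FOS, 31 before that of JUNB, 30 before that of FOSB and 230 before the other start of ATF3, against 10.7% of promoters. TGANTCA, TGACGTCA and GCGTGGGCG were in no window of these members, against 6.57%, 1.65% and 0.72% of promoters. Neither the CArG box nor TGACATCA was found before the starts of FOS, FOSB and JUNB. Sequence beyond these 250 bases was not searched, so these genes may carry either element further upstream. A match describes these letters and is not evidence of binding. In the lines that follow, each read 5′ to 3′ on the gene's strand, capitals mark the CArG box in EGR1 and EGR2 and TGACATCA in JUN and ATF3. The EGR1 line is chr5:138465329-138465478 on the plus strand and the EGR2 line chr10:62816367-62816516 on the minus strand. The ATF3 line is chr1:212565184-212565333 on the plus strand, and the JUN line, inside the untranslated 5′ part of JUN in GENCODE 29, is chr1:58784096-58784125 on the minus strand.
EGR1: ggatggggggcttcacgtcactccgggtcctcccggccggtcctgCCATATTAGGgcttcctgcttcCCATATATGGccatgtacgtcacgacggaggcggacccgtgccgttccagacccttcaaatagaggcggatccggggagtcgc
EGR2: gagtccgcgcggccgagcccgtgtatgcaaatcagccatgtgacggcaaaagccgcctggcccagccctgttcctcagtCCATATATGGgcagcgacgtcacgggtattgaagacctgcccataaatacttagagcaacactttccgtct
JUN: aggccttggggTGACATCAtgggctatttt
ATF3: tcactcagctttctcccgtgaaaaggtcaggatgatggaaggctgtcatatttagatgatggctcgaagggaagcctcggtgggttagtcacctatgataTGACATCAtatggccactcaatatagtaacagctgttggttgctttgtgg

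Library totals ran from 16.04 to 27.94 M counts. They were 17.47 to 18.03 M in Ctrl_Vehicle, R4KO_1_Vehicle and R4KO_2_Vehicle and 21.36 to 27.94 M in KO_2_H151 and KO_2_BX_795. Inhibitor and any batch that goes with this depth cannot be told apart. REXO4 itself averaged 75.0 CPM (read counts scaled to library size with TMM factors) in Ctrl_Vehicle, 9.58 in R4KO_1_Vehicle, 6.40 in R4KO_2_Vehicle, 18.1 in KO_2_H151 and 19.1 in KO_2_BX_795, and 94.0, 60.2 and 89.5 CPM in Vehicle, iR4 and H151_iR4. The libraries labelled KO_2_H151 and KO_2_BX_795 did not carry every mark of R4KO_2: PXDN averaged 0.142 CPM in R4KO_2_Vehicle, 8.21 in R4KO_1_Vehicle, 10.98 in KO_2_H151 and 12.6 in KO_2_BX_795, and SLC12A3 0.267, 8.07, 25.2 and 14.9 CPM in the same order. ESM1 stood above both knockouts in these libraries, at 8.85 and 9.39 CPM against 0.0734 in R4KO_1_Vehicle and 1.99 in R4KO_2_Vehicle. Results of the inhibitors are given against R4KO_2_Vehicle, and values against R4KO_1_Vehicle are added where they change a call or direction. The R4KO_1_Vehicle libraries were further apart than those of any other group (chi-square per gene 11.9 between replicates 1 and 3). Replicate 1 was lowest for 9 of the 10 members and for 22 of 28 other immediate early genes, and replicate 3 highest for 8 and 23, where these libraries were lowest for 36.4% and highest for 39.8% of all genes. R4KO_2_Vehicle replicate 1 was lowest for 8 members and 19 of the 28, and Ctrl_Vehicle replicate 1 for 7 and 17. These libraries were lowest for 35.2% and 29% of all genes. In the iR4 experiment, Vehicle replicate 3 was lowest for 9 members and 16 of the 28, and iR4 replicate 3 highest for 8 and 23. Of all genes, Vehicle replicate 3 was lowest for 33.5% and iR4 replicate 3 highest for 35.4%. In H151_iR4, replicate 2 was highest for 9 members and 18 of the 28, although it was highest for 30.9% of all genes. Epithelial markers summed to 1919 to 4269 CPM per library, fibroblast markers to 21.7 to 47.6, endothelial markers to 0.340 to 2.05 and leukocyte markers to 0 to 0.634. All 4 leukocyte, 2 of 3 endothelial and 3 of 5 fibroblast markers were under 1 CPM in every library. Per GENCODE 29, FOSB overlaps ERCC1 and JUNB overlaps HOOK2 on the opposite strand, and the sources used here do not state whether counting used strand, so these pairs are less certain. ERCC1 had 410 to 981 counts and HOOK2 562 to 1266 per library.

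Loss of REXO4 was examined first by setting each knockout against Ctrl_Vehicle. The EGR genes fell in both knockouts, EGR3 the most, and ATF3 and JUN rose in both. FOS and FOSB fell in both, FOSB by 0.48 and 0.87, and FOSL1 went opposite ways. In R4KO_1_Vehicle, 2 members rose and 7 fell, where 33.0% of the 14348 genes tested rose and 31.4% fell. In R4KO_2_Vehicle, 3 rose and 5 fell, where 34.0% rose and 32.2% fell. The median log2 fold change of the members was -0.47 in R4KO_1_Vehicle and -0.35 in R4KO_2_Vehicle, and that of all genes 0.02 in each. Both comparisons share the 3 Ctrl_Vehicle libraries, so their likeness is in part built in.

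EGR3 (ENSG00000179388), a zinc finger factor downstream of mitogen and antigen-receptor signals, stood at 7.93, 11.1 and 12.5 CPM in Ctrl_Vehicle, at 1.56, 1.77 and 3.11 CPM in R4KO_1_Vehicle and at 2.28, 2.89 and 3.11 CPM in R4KO_2_Vehicle. All 6 knockout libraries lay below all 3 controls. The counts behind these values were 133 to 211 per control library and 29 to 58 per knockout library. The log2 fold change was -2.29 ± 0.20 (± is the standard error here and for every log2 fold change, n = 3 against 3; edgeR adjusted p = 1.13e-09) in R4KO_1_Vehicle, the 29th lowest of all genes tested, and -1.93 ± 0.19 (edgeR adjusted p = 6.42e-09) in R4KO_2_Vehicle, the 84th lowest.

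EGR1 (ENSG00000120738), the founding member of the family and a growth-factor-induced regulator, read 479, 528 and 561 CPM in Ctrl_Vehicle, 275, 323 and 371 in R4KO_1_Vehicle and 255, 279 and 313 in R4KO_2_Vehicle. No knockout library reached the lowest control. EGR1 fell by 0.70 ± 0.083 on the log2 scale in R4KO_1_Vehicle (edgeR adjusted p = 1.18e-07) and by 0.89 ± 0.081 in R4KO_2_Vehicle (edgeR adjusted p = 2.56e-09). EGR2, best known from myelination and lymphocyte tolerance, read 12.8 to 17.1 CPM in controls, 6.69 to 9.76 in R4KO_1_Vehicle and 6.36 to 10.8 in R4KO_2_Vehicle, without overlap. It fell by 0.84 ± 0.15 and 0.85 ± 0.15 (edgeR adjusted p = 3.86e-05 and 2.85e-05).

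ATF3 (ENSG00000162772), a stress-induced bZIP factor that the integrated stress response and JNK both raise, read 40.8, 43.7 and 49.3 CPM in Ctrl_Vehicle. It reached 68.7, 103 and 128 CPM in R4KO_1_Vehicle and 150, 186 and 154 CPM in R4KO_2_Vehicle. The 3 groups did not overlap, and R4KO_2_Vehicle was the highest. ATF3 rose by 1.16 ± 0.14 (edgeR adjusted p = 1.89e-07) in R4KO_1_Vehicle and by 1.88 ± 0.14 (edgeR adjusted p = 6.35e-11) in R4KO_2_Vehicle.

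JUN (ENSG00000177606), the main transactivating subunit of AP-1, read 117, 124 and 152 CPM in Ctrl_Vehicle, 137, 181 and 236 in R4KO_1_Vehicle and 187, 216 and 218 in R4KO_2_Vehicle. R4KO_2_Vehicle lay above every control, whereas the lowest R4KO_1_Vehicle library lay inside the control range. JUN rose by 0.50 ± 0.12 (edgeR adjusted p = 0.000992) and 0.66 ± 0.12 (edgeR adjusted p = 4.63e-05). JUNB, a JUN relative with weaker transactivation, averaged 302 CPM in Ctrl_Vehicle, 299 in R4KO_1_Vehicle and 339 in R4KO_2_Vehicle and passed the test in neither (log2 fold changes -0.02 and 0.17, edgeR adjusted p = 0.878 and 0.0706). In R4KO_2_Vehicle all 3 JUNB libraries lay above the controls, and the difference was called with upper-quartile factors (edgeR adjusted p = 0.0194), without a filter (0.000744), with the replicate number as a block (0.0382) and with only the groups compared (0.00459). Without a filter and with only the groups compared, the log2 fold change was 0.16, no larger than the 0.17 above. Without R4KO_1_Vehicle replicate 3, JUNB was called lower there (-0.17).

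Among the FOS proteins, the partners that cannot pair with themselves, FOSB read 197, 230 and 207 CPM in Ctrl_Vehicle, 142, 156 and 155 in R4KO_1_Vehicle and 102, 119 and 126 in R4KO_2_Vehicle. The 3 groups followed that order without overlap. FOSB fell by 0.48 ± 0.062 and 0.87 ± 0.062 (edgeR adjusted p = 4.94e-07 and 5.91e-11). FOS read 255, 286 and 230 CPM in Ctrl_Vehicle, 238, 229 and 213 in R4KO_1_Vehicle and 175, 187 and 184 in R4KO_2_Vehicle, so that only the second knockout lay wholly below the controls. Its fall of 0.50 ± 0.057 in R4KO_2_Vehicle (edgeR adjusted p = 8.47e-08) compares with 0.18 ± 0.056 in R4KO_1_Vehicle (edgeR adjusted p = 0.00782), and the smaller one was lost without Ctrl_Vehicle replicate 2 (log2 fold change -0.10, edgeR adjusted p = 0.0956).

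FOSL1 (ENSG00000175592), the FOS relative most tied to invasion of squamous tumors, read 73.5, 73.5 and 67.9 CPM in Ctrl_Vehicle and 101, 121 and 100 CPM in R4KO_2_Vehicle, a rise of 0.59 ± 0.18 (edgeR adjusted p = 0.00583). In R4KO_1_Vehicle it read 30.2, 45.8 and 81.5 CPM, a spread that ran from below to above every control. The log2 fold change there was -0.45 ± 0.19 (edgeR adjusted p = 0.0384), and it was no longer called without R4KO_1_Vehicle replicate 1 (-0.17) or 2 (-0.36) or without any 1 of the controls (-0.49 to -0.43). DESeq2 called FOSL1 in neither knockout (adjusted p = 0.14 and 0.0525). IER3, an early response gene that acts on cell survival rather than on transcription, read 154, 162 and 173 CPM in Ctrl_Vehicle against 70.3, 101 and 145 in R4KO_1_Vehicle, all below the controls, and 126, 153 and 143 in R4KO_2_Vehicle. It fell by 0.63 ± 0.14 in R4KO_1_Vehicle (edgeR adjusted p = 0.000569) and was not called in R4KO_2_Vehicle (log2 fold change -0.21, edgeR adjusted p = 0.188). There all 3 IER3 libraries still lay below the controls, and it was called lower without a filter (edgeR adjusted p = 9.88e-06) and with only the groups compared (0.00134). Its log2 fold change was -0.22 in both of these fits, close to the -0.21 above.

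**Figure D1:**
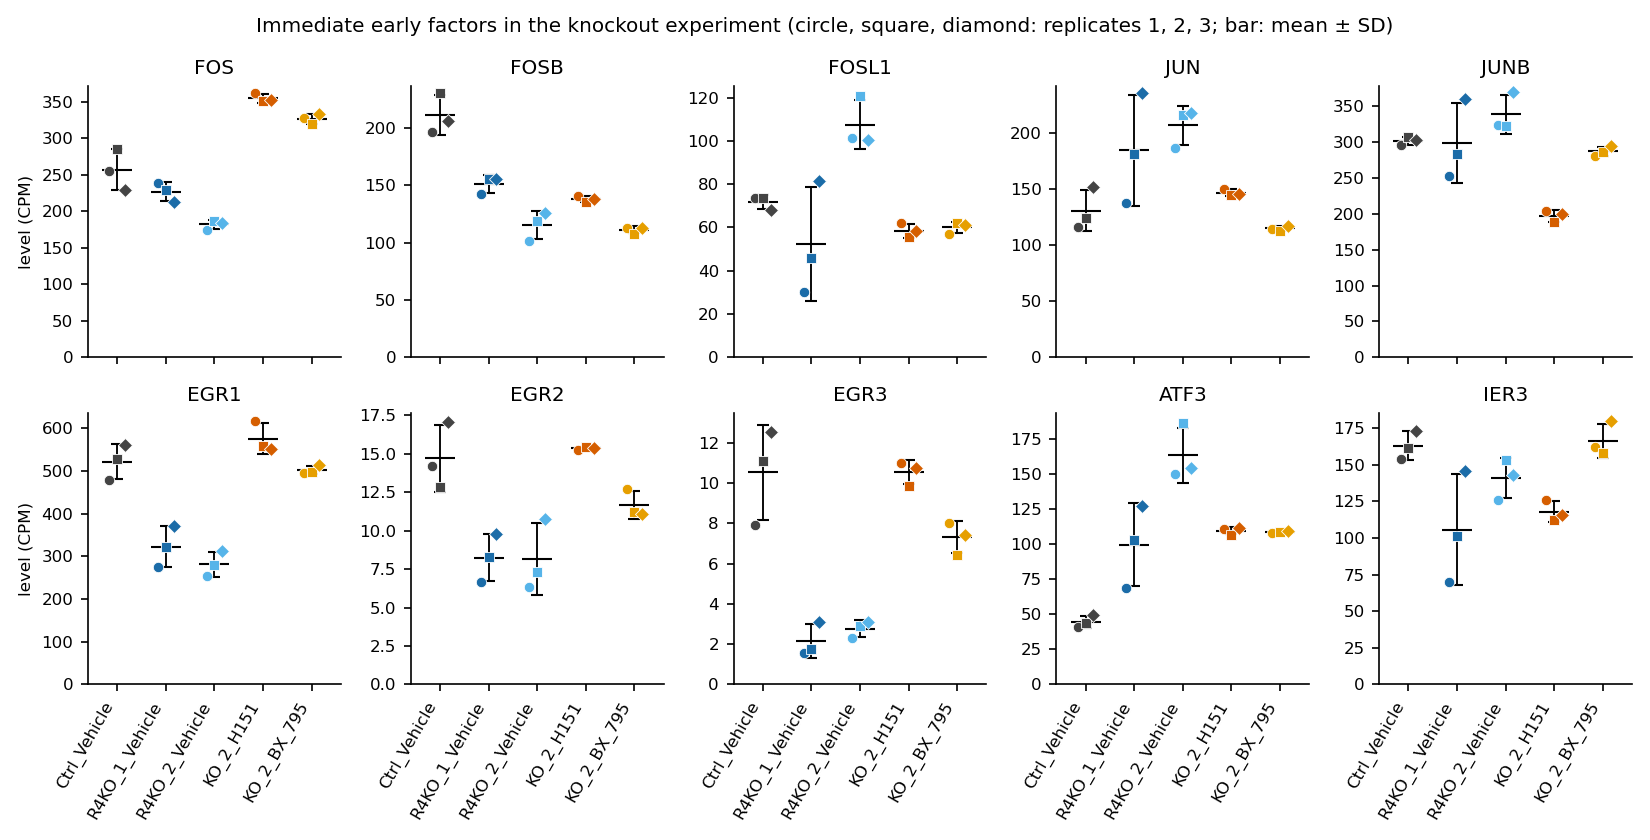
TMM-scaled CPM of the 10 members in the 15 libraries of the knockout experiment, 1 panel per gene, on axes in CPM; symbols are replicates 1 to 3 and bars are group means ± SD. EGR1, EGR2 and EGR3 sit lower in both vehicle-treated knockouts than in Ctrl_Vehicle and near the control level in KO_2_H151, while ATF3 stays above the control in every knockout group.

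The knockouts also differed from each other. Against R4KO_1_Vehicle, R4KO_2_Vehicle was higher for 3 members, where 15.1% of genes were, and lower for 2, where 16.6% were. FOSL1 was higher by 1.04 (edgeR adjusted p = 0.000132), ATF3 by 0.71 (edgeR adjusted p = 0.000135) and IER3 by 0.42 (edgeR adjusted p = 0.0295), and FOS and FOSB were lower (-0.32 and -0.39, edgeR adjusted p = 0.000167 and 6.65e-05). The differences for JUN (0.16), EGR1 (-0.19, with a 95% interval from -0.36 to -0.03 before adjustment) and EGR3 (0.36) were not called. Single libraries moved these calls. Without R4KO_1_Vehicle replicate 3, JUN (0.38) and EGR3 (0.72) were called and 6 members were higher. The share of all genes called in that fit was not counted. EGR1 was called without R4KO_1_Vehicle replicate 1 (-0.30) or R4KO_2_Vehicle replicate 3 (-0.27). The IER3 call was lost without R4KO_1_Vehicle replicate 1 (0.19) or 2 (0.39) or R4KO_2_Vehicle replicate 2 (0.35) or 3 (0.40).

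The surrounding pathway was described with lists of genes. For scale, 33.0% of all genes tested rose and 31.4% fell in R4KO_1_Vehicle, and 34.0% rose and 32.2% fell in R4KO_2_Vehicle, with medians of 0.02. Of 10 tested AP-1 dimer partners, 8 rose and 0 fell in R4KO_1_Vehicle (edgeR; 1 fell at an unadjusted p under 0.05, and 0 by DESeq2), with a median of 0.59, and 9 rose and 1 fell in R4KO_2_Vehicle, with a median of 0.75. JDP2, a repressive JUN partner, rose by 1.77 ± 0.13 in R4KO_1_Vehicle, and in R4KO_2_Vehicle JUND rose by 0.95 ± 0.089 and MAFF, a small MAF, by 1.89 ± 0.18. BATF3, a bZIP factor of dendritic cells, was the one that fell in R4KO_2_Vehicle (-1.13 ± 0.34).

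Other immediate early genes went both ways, with 10 of 28 up and 8 down in R4KO_1_Vehicle and 14 up and 7 down in R4KO_2_Vehicle. DUSP1, the phosphatase that shuts off p38 and JNK, rose by 1.24 ± 0.087 and 1.14 ± 0.087, and KLF4 rose by 1.28 ± 0.12 in R4KO_2_Vehicle. Those that fell included the matricellular CCN2 (-1.10 ± 0.088 and -1.08 ± 0.088), MYC (-0.51 ± 0.051 and -0.45 ± 0.051), IER5L (-1.28 ± 0.14 and -1.22 ± 0.14) and, in R4KO_2_Vehicle, the orphan receptor NR4A1 (-1.08 ± 0.15).

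Among SRF, its ternary complex partners and the EGR corepressors, 1 of 10 rose and 3 fell in R4KO_1_Vehicle, and 2 rose and 4 fell in R4KO_2_Vehicle. SRF fell by 0.59 ± 0.054 and 0.53 ± 0.054 and ELK1 by 0.34 ± 0.067 and 0.44 ± 0.067, while ELK4 rose by 0.41 ± 0.046 and 0.29 ± 0.046. Kinases upstream of AP-1 numbered 7 up and 6 down of 22 in R4KO_1_Vehicle and 5 and 6 in R4KO_2_Vehicle; HRAS fell by 0.58 ± 0.045 and 0.78 ± 0.046. Of 6 EGFR ligands, which feed ERK from outside the cell, 2 rose and 2 fell in R4KO_1_Vehicle and 4 and 1 did in R4KO_2_Vehicle. HBEGF rose by 0.77 ± 0.14 and 2.19 ± 0.12 and EPGN by 1.56 ± 0.14 and 1.01 ± 0.15, whereas AREG fell by 0.74 ± 0.11 in R4KO_1_Vehicle.

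The CREB and ATF family held 6 rises and 3 falls among 15 in R4KO_1_Vehicle and 7 and 4 in R4KO_2_Vehicle. DDIT3, the CHOP protein of the integrated stress response, rose by 2.07 ± 0.18 and 2.58 ± 0.17 and CREB5 by 1.74 ± 0.19 and 2.58 ± 0.17, while ATF5 fell by 1.22 ± 0.089 and 1.14 ± 0.088. AP-1 targets of squamous cells were split, with 9 up and 8 down of 18 in R4KO_1_Vehicle and 9 and 7 in R4KO_2_Vehicle. The urokinase gene PLAU rose by 2.27 ± 0.15 and 2.12 ± 0.15, and the collagenase MMP1 fell by 0.95 ± 0.074 and 0.35 ± 0.071. EGR1 targets were as mixed, 4 up and 4 down of 9, then 4 and 5, and the tissue factor gene F3 fell by 1.85 ± 0.11 in R4KO_1_Vehicle.

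The inhibitor groups were set against R4KO_2_Vehicle to ask how the knockout profile changes with STING or TBK1 inhibited. These 3 libraries are also the numerator of the R4KO_2_Vehicle comparison, so a change back toward the control is in part built in, and both inhibitors share them. FOS and all 3 EGR genes were higher with either compound, and FOSL1, JUN, JUNB and ATF3 lower. With H-151, 5 members rose, where 35.7% of genes did, and 4 fell, where 37.0% did. With BX-795, 4 rose, where 36.4% did, and 4 fell, where 37.1% did. The median over the members was 0.00 with H-151 and 0.09 with BX-795, and over all genes -0.01 with each.

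EGR3 read 10.998, 9.87 and 10.7 CPM in KO_2_H151 and 8.03, 6.45 and 7.43 CPM in KO_2_BX_795, all above the R4KO_2_Vehicle libraries. It was higher by 1.93 ± 0.18 with H-151 (edgeR adjusted p = 2.28e-09) and by 1.41 ± 0.19 with BX-795 (edgeR adjusted p = 6.33e-07). EGR1 read 618, 558 and 552 CPM with H-151 and 496, 499 and 513 CPM with BX-795, again without overlap with R4KO_2_Vehicle, and rose by 1.03 ± 0.080 and 0.83 ± 0.080 (edgeR adjusted p = 1.36e-10 and 4.19e-09). EGR2 rose by 0.91 ± 0.14 and 0.52 ± 0.15 (edgeR adjusted p = 5.21e-06 and 0.00310).

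FOS read 362, 350 and 352 CPM with H-151 and 328, 319 and 333 CPM with BX-795. These 6 libraries lay above every vehicle-treated library of the experiment, controls included. FOS rose by 0.96 ± 0.056 and 0.84 ± 0.056 against R4KO_2_Vehicle (edgeR adjusted p = 9.11e-13 and 8.33e-12). FOSB read 141, 136 and 138 CPM with H-151, a rise of 0.26 ± 0.063 (edgeR adjusted p = 0.000810), and 113, 108 and 113 CPM with BX-795, where it was not called (-0.05, edgeR adjusted p = 0.442). Without R4KO_2_Vehicle replicate 1, FOSB was called lower with BX-795 (-0.14). FOSL1 fell by 0.88 ± 0.17 and 0.84 ± 0.17 (edgeR adjusted p = 0.000116 and 0.000171), to 55.4 to 61.9 CPM and 56.9 to 62.1 CPM.

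ATF3 read 111, 107 and 112 CPM with H-151 and 108, 109 and 110 CPM with BX-795. All 6 libraries lay below R4KO_2_Vehicle, above Ctrl_Vehicle and inside the range of R4KO_1_Vehicle. ATF3 fell by 0.58 ± 0.12 and 0.59 ± 0.12 against R4KO_2_Vehicle (edgeR adjusted p = 0.000233 and 0.000182). JUN read 150.6, 145 and 145 CPM and 115, 113 and 117 CPM, falls of 0.49 ± 0.12 and 0.85 ± 0.12 (edgeR adjusted p = 0.000685 and 1.25e-06). JUNB fell by 0.78 ± 0.080 with H-151 (edgeR adjusted p = 1.32e-08) and by 0.24 ± 0.079 with BX-795 (edgeR adjusted p = 0.0102), and IER3 was called with neither (-0.25 and 0.24, edgeR adjusted p = 0.106 and 0.117). IER3 was called with both, lower with H-151 and higher with BX-795, without a filter (edgeR adjusted p = 1.71e-06 and 7.77e-08) and with only the groups compared (0.000334 and 0.000112). Its log2 fold changes without a filter were -0.24 and 0.26, close to those above. Without R4KO_2_Vehicle replicate 3 the JUNB call with BX-795 was lost (-0.17).

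Against R4KO_1_Vehicle instead, the differences of FOSL1 and ATF3 turned to 0.16 and 0.14 with H-151 and to 0.20 and 0.13 with BX-795, and FOSB and IER3 to -0.13 and 0.16 with H-151, none of them called. With BX-795, FOSB was then called lower (-0.44, edgeR adjusted p = 1.75e-06) and IER3 higher (0.66, edgeR adjusted p = 0.000269), and the JUNB call was lost (-0.06). Members lower than the knockout numbered 2 rather than 4 with each compound. The share of all genes called lower against R4KO_1_Vehicle was not counted, so these numbers have no scale beside them. FOS and the 3 EGR genes were called higher against either knockout, FOS by 0.65 and 0.53 and EGR3 by 2.30 and 1.77 against R4KO_1_Vehicle.

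**Figure D2:**
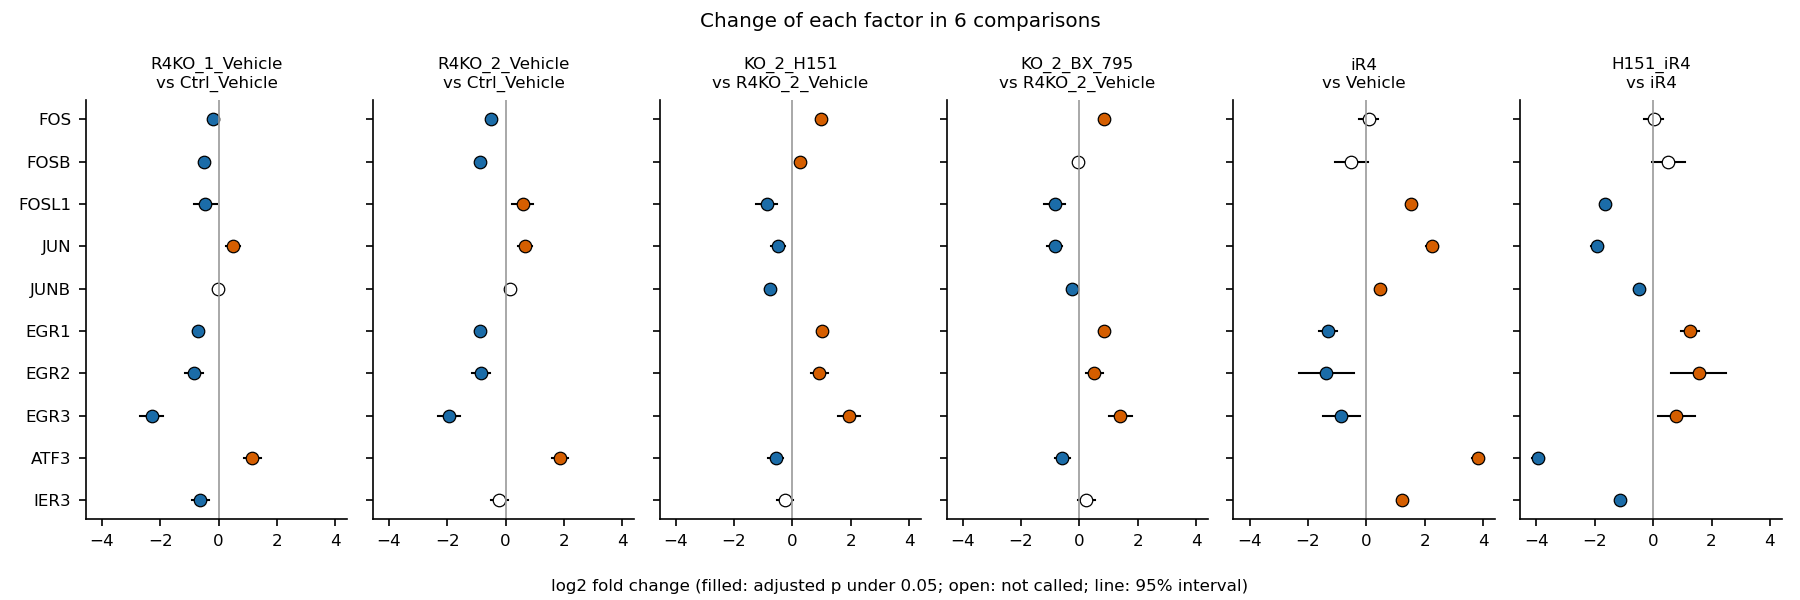
Log2 fold change of each member (horizontal axis, with 95% intervals) in the 6 main comparisons, filled where the edgeR adjusted p was under 0.05. The EGR genes lie left of 0 in both knockouts and under iR4 and right of 0 with each inhibitor, and ATF3 shows the mirror image.

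Set against Ctrl_Vehicle, which the fits of the knockouts share, KO_2_H151 had 2 members higher, where 26.0% of genes were, and 3 lower, where 26.9% were. EGR1 and EGR3 were near the control (0.14, with a 95% interval from -0.02 to 0.30, and 0.00, from -0.29 to 0.30), JUN differed by 0.17 without a call, and ATF3 remained higher by 1.30 (edgeR adjusted p = 6.14e-08) and FOS was higher by 0.47 (edgeR adjusted p = 3.66e-07). FOSB, JUNB and IER3 were lower (-0.61, -0.61 and -0.47). In KO_2_BX_795, 2 members were higher, where 27.7% were, and 3 lower, where 28.0% were. ATF3 was again higher by 1.29 and FOS by 0.35 (edgeR adjusted p = 5.9e-08 and 1.64e-05), and FOSB (-0.93), EGR2 (-0.33) and EGR3 (-0.52) were lower, with EGR1 at -0.06 (95% interval -0.22 to 0.11) and JUN at -0.19 without a call. EGR2 lost its call without Ctrl_Vehicle replicate 1 (-0.36) or 3 (-0.21) or KO_2_BX_795 replicate 2 (-0.31) or 3 (-0.29), and EGR3 without Ctrl_Vehicle replicate 3 (-0.38).

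H-151 and BX-795 were also set against each other at the doses and times of the study, which the sources used here do not give, so that a match between them cannot be checked. With BX-795, 2 members were higher than with H-151, where 5.67% of genes were, namely JUNB (0.54, edgeR adjusted p = 0.000106) and IER3 (0.50, edgeR adjusted p = 0.0236). Another 2 were lower, where 3.99% were, namely FOSB (-0.32, edgeR adjusted p = 0.00204) and EGR3 (-0.52, edgeR adjusted p = 0.0224). ATF3 differed by -0.01 with a 95% interval from -0.27 to 0.24, FOS by -0.12 and EGR1 by -0.20, without a call. The calls of IER3 and EGR3 were each lost on leaving out any of 4 of the 6 libraries, at 0.44 to 0.52 for IER3 (KO_2_BX_795 replicates 1 and 3, KO_2_H151 replicates 2 and 3) and -0.54 to -0.45 for EGR3 (KO_2_BX_795 replicates 2 and 3, KO_2_H151 replicates 1 and 3). Other settings called more members lower, 4 with upper-quartile factors and with the replicate number as a block. Without a filter 5 were lower, and 6 with only the groups compared. All genes called lower numbered 543 of 14348 with upper-quartile factors, 526 of 14348 with the block and 671 of 24274 without a filter. For only the groups compared they were not counted. By range, 6 members lay wholly below their H-151 libraries, where 16.4% of all genes did, and 2 wholly above, where 17.3% did.

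Outside the members, the lists also split with the inhibitors, as all genes did, here against R4KO_2_Vehicle. Among the 14348 genes tested, the H-151 comparison called 35.7% higher and 37.0% lower. The BX-795 comparison called 36.4% higher and 37.1% lower. AP-1 partners numbered 3 up and 5 down of 10 with H-151 (median -0.15) and 3 and 6 with BX-795 (median -0.33). JUND fell by 1.21 ± 0.088 and 1.58 ± 0.090 while JDP2, already higher in the knockouts, rose by a further 1.03 ± 0.10 and 1.62 ± 0.099 (0.15, not called, and 0.73 against R4KO_1_Vehicle). Other immediate early genes numbered 12 up and 11 down of 28 with H-151 and 13 and 10 with BX-795. NR4A1 rose by 2.41 ± 0.14 and 2.16 ± 0.14 and the clock gene PER1 by 1.32 ± 0.066 and 1.25 ± 0.066, and KLF4 fell by 1.37 ± 0.11 and 1.39 ± 0.11.

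SRF rose by 0.59 ± 0.052 with H-151 and 0.47 ± 0.053 with BX-795 in a list with 2 up and 4 down of 10, then 4 and 4. Kinases numbered 7 up and 8 down of 22, then 9 and 8, with HRAS higher by 0.84 ± 0.045 and 0.83 ± 0.045. EGFR ligands numbered 1 up and 4 down of 6, then 2 and 4, and AREG fell by 1.33 ± 0.10 and 1.24 ± 0.10 (-0.31 and, not called, -0.23 against R4KO_1_Vehicle). In the CREB and ATF family, with 6 up and 6 down of 15 each time, DDIT3 fell by 2.01 ± 0.15 and 2.17 ± 0.16. Among AP-1 targets, with 6 up and 10 down with H-151 and 8 and 8 with BX-795, the stromelysin MMP10 fell by 3.23 ± 0.14 and 2.84 ± 0.13 and the collagenase MMP13 fell by 3.14 ± 0.081 and 2.93 ± 0.079. Of 9 EGR1 targets, 4 rose and 4 fell, then 3 and 4, and F3 rose by 1.21 ± 0.10 and 1.79 ± 0.10 while CDKN1A fell by 1.49 ± 0.094 with H-151 and fell by 1.418 ± 0.093 with BX-795.

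The iR4 experiment gave the largest changes of ATF3 and JUN in any main comparison. Under iR4, 5 members rose, where 37.1% of the 14000 genes tested did, and 3 fell, where 34.8% did, with a median over the members of 0.28 against 0.02 over all genes. ATF3, JUN, FOSL1, IER3 and JUNB rose and the 3 EGR genes fell, while FOS and FOSB were not called.

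ATF3 read 24.8, 25.9 and 24.6 CPM in Vehicle and 318, 320 and 425 CPM in iR4, a 14.1-fold rise (log2 3.82 ± 0.088, edgeR adjusted p = 3.11e-21) that was the 40th highest of all genes. In H151_iR4 it read 20.1, 26.5 and 21.5 CPM, which overlapped Vehicle. Against iR4 it fell by 3.95 on the log2 scale (SE 0.094, edgeR adjusted p = 2.27e-21), the 41st lowest.

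JUN read 74.8, 78.4 and 67.9 CPM in Vehicle, 310, 327 and 425 in iR4 and 83.3, 114 and 80.7 in H151_iR4. The 3 groups did not overlap. JUN rose by 2.27 ± 0.10 under iR4 (edgeR adjusted p = 3.35e-16) and fell by 1.92 ± 0.098 from iR4 to H151_iR4 (edgeR adjusted p = 5.67e-15). FOSL1 read 49.9, 45.1 and 42.8 CPM, then 136, 127 and 138, then 50.9, 45.8 and 32.6, a rise of 1.54 ± 0.081 and a fall of 1.64 ± 0.081 (edgeR adjusted p = 6.23e-15 and 3.09e-15). IER3 read 63.8, 64.3 and 65.1 CPM, then 149, 145 and 162, then 64.7, 82.0 and 61.4.

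In both genes iR4 stood above every library of the other groups. IER3 rose by 1.24 ± 0.064 and fell by 1.12 ± 0.064 (edgeR adjusted p = 7.71e-15 and 5.61e-14), and JUNB rose by 0.47 ± 0.043 and fell by 0.48 ± 0.044 (edgeR adjusted p = 5.12e-10 and 4.39e-10).

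EGR1 read 231, 223 and 155 CPM in Vehicle, 91.6, 63.5 and 87.7 in iR4 and 164, 260 and 155 in H151_iR4. Every iR4 library lay below both other groups. EGR1 fell by 1.32 ± 0.15 under iR4 (edgeR adjusted p = 1.56e-08), the 194th lowest, and rose by 1.26 ± 0.15 with H-151 added (edgeR adjusted p = 4.14e-08). EGR2 and EGR3 had few reads in this experiment. Their counts in replicates 1 to 3 were 50, 62 and 24 for EGR2 in Vehicle, 21, 12 and 24 in iR4 and 20, 107 and 18 in H151_iR4. For EGR3 they were 54, 59 and 32, then 23, 28 and 36, then 18, 79 and 33, so that EGR3 overlapped between the groups.

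Under iR4, EGR2 fell by 1.38 ± 0.46 and EGR3 by 0.86 ± 0.31 (edgeR adjusted p = 0.00955 and 0.0145), and with H-151 added they rose by 1.56 ± 0.45 and 0.80 ± 0.31 (edgeR adjusted p = 0.0035 and 0.0253). The rises rest on H151_iR4 replicate 2, which was the highest library for 9 of the 10 members; without it they were 0.38 and 0.19 (edgeR adjusted p = 0.42 and 0.621), and FOS then fell by 0.34 (edgeR adjusted p = 0.0227). The fall of EGR2 lost its call without Vehicle replicate 2 (-1.10), the fall of EGR3 without Vehicle replicate 1 (-0.73) or 2 (-0.71) or iR4 replicate 1 (-0.68), and the rise of EGR3 also without iR4 replicate 1 (0.62). DESeq2 called EGR2 and EGR3 in neither comparison (adjusted p = 0.0685 and 0.1 under iR4, 0.0546 and 0.172 with H-151 added).

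FOS and FOSB were not called under iR4 (0.08 and -0.51, edgeR adjusted p = 0.639 and 0.102) or between H151_iR4 and iR4 (0.02 and 0.52, edgeR adjusted p = 0.922 and 0.0971). FOS read 65.8, 62.6 and 43.1 CPM in Vehicle, 66.1, 49.5 and 64.9 in iR4 and 43.1, 85.4 and 51.8 in H151_iR4, with all 3 groups overlapping. FOSB was called lower under iR4 without Vehicle replicate 3 (-0.77) and higher in H151_iR4 than in iR4 without H151_iR4 replicate 1 (0.79) or 3 (0.77), whereas without replicate 2 it turned to -0.27. FOSB was also called lower under iR4 without a filter (edgeR adjusted p = 9.81e-10) and with only the groups compared (0.00812), and higher with H-151 added without a filter (5.25e-10). Without a filter its log2 fold changes were -0.52 ± 0.082 and 0.53 ± 0.083. These p-values thus go with a smaller estimated spread and not with a larger change. The FOSB libraries overlapped, at 9.90 to 20.8 CPM in Vehicle, 9.36 to 12.7 in iR4 and 8.43 to 27.6 in H151_iR4. In the H151_iR4 against iR4 comparison 3 members rose, where 35.1% of genes did, and 5 fell, where 36.3% did, with a median over the members of -0.23 against -0.01 over all genes. These 2 comparisons share the iR4 libraries on opposite sides.

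**Figure D3:**
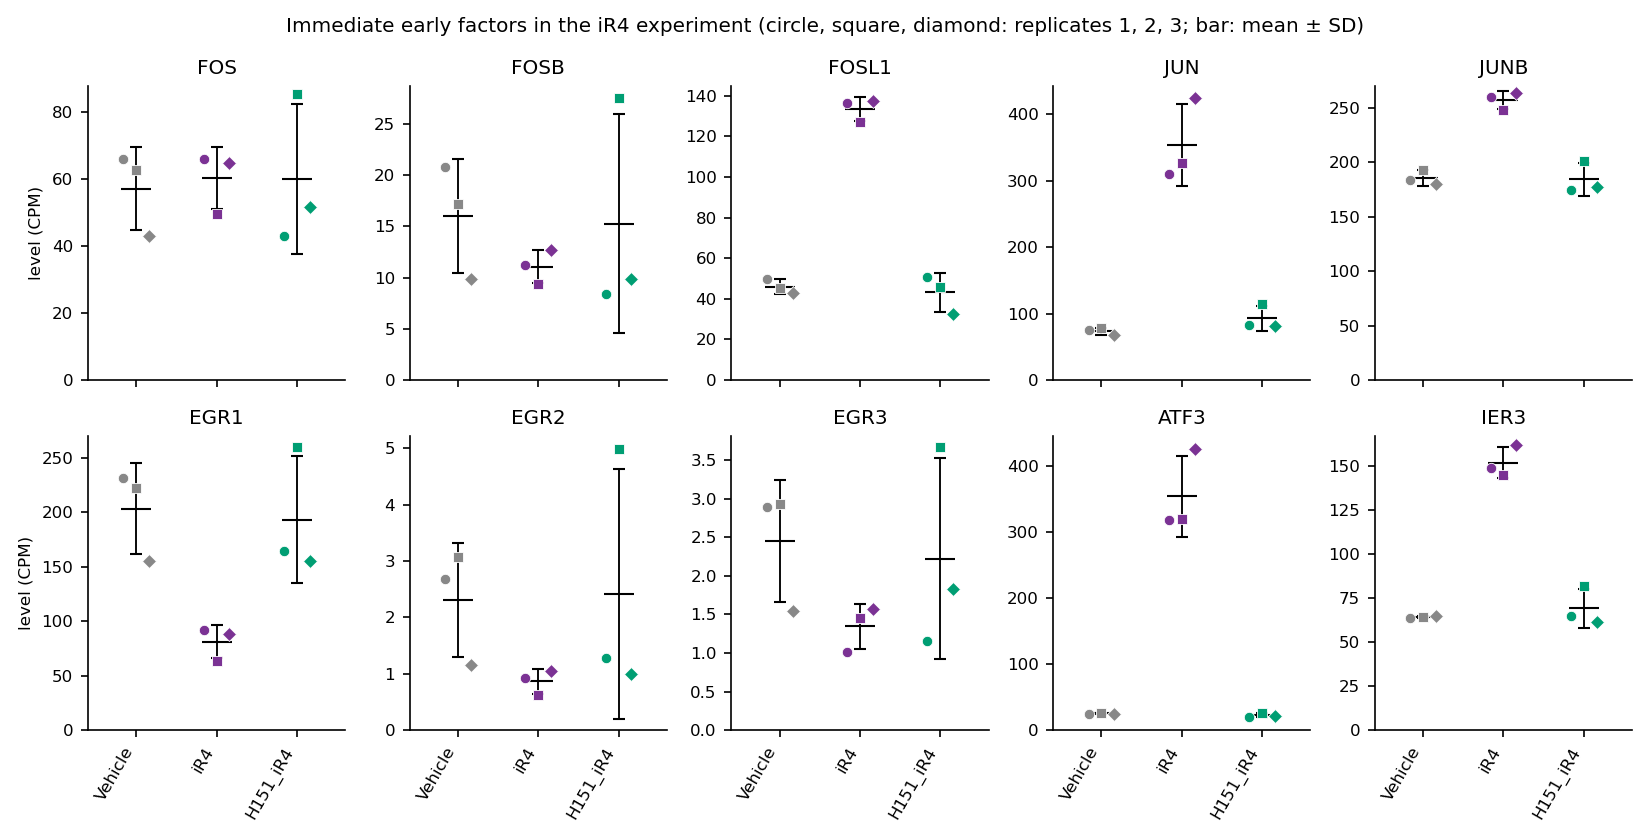
TMM-scaled CPM of the 10 members in the 9 libraries of the iR4 experiment, 1 panel per gene, on axes in CPM; symbols are replicates 1 to 3 and bars are group means ± SD. ATF3 stands at 318 to 425 CPM in iR4 and at 20.1 to 26.5 CPM in the other groups, and EGR1 is lowest in iR4.

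Against Vehicle, H151_iR4 differed little. JUN was higher (0.34, edgeR adjusted p = 0.0263), 1 member where 8.71% of genes were higher, and the call was lost without H151_iR4 replicate 2 (0.16) or Vehicle replicate 1 (0.35) or 3 (0.29). None of the 10 was lower by edgeR, where 9.58% of genes were (0 at an unadjusted p under 0.05, 0 by DESeq2); without H151_iR4 replicate 2, FOSB was called lower (-0.79, edgeR adjusted p = 0.0092). The differences of ATF3 (-0.13, 95% interval -0.38 to 0.12) and EGR1 (-0.06, -0.35 to 0.22) were not called.

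Most AP-1 partners and other immediate early genes rose under iR4 and fell with H-151 added. Over all genes tested, 37.1% rose and 34.8% fell under iR4, and 35.1% rose and 36.3% fell with H-151 added. Of 10 AP-1 partners, 9 rose and 1 fell under iR4 (median 1.37), and 0 rose (edgeR; 0 at an unadjusted p under 0.05 and 0 by DESeq2) and 9 fell from iR4 to H151_iR4 (median -1.23). MAFF rose by 3.62 ± 0.088 and fell by 3.15 ± 0.085, JDP2 rose by 2.205 ± 0.089 and fell by 1.63 ± 0.084, and JUND rose by 1.66 ± 0.061 and fell by 1.61 ± 0.061. BATF3 fell under iR4 (-0.88 ± 0.29). Of 28 other immediate early genes, 22 rose and 2 fell under iR4 (median 0.82), and 2 rose and 21 fell with H-151 added (median -0.78). DUSP1 rose by 3.24 ± 0.10 and fell by 3.01 ± 0.10, KLF4 rose by 2.0 ± 0.055 and fell by 1.77 ± 0.054, and SNAI2, a repressor of epithelial genes, rose by 1.48 ± 0.039 and fell by 1.55 ± 0.040. MYC and IER5L ran the other way, at -0.41 ± 0.034 and -0.61 ± 0.081, then 0.50 ± 0.034 and 0.84 ± 0.080.

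EGFR ligands numbered 4 up and 0 down of 6 under iR4 (edgeR; 0 down at an unadjusted p under 0.05 and by DESeq2; median 1.10) and 2 up and 4 down with H-151 added. AREG rose by 2.19 ± 0.085 and fell by 2.29 ± 0.087, and HBEGF rose by 2.25 ± 0.099 and fell by 2.09 ± 0.099. The SRF list had 5 up and 4 down of 10, then 2 and 7, where ETS1 rose by 0.65 ± 0.054 and fell by 1.03 ± 0.057 and SRF fell under iR4 (-0.19 ± 0.044). Kinases numbered 9 up and 6 down of 22, then 6 and 7; HRAS fell by 0.72 ± 0.043 and rose by 0.64 ± 0.044.

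In the CREB and ATF family 9 of 15 rose and 4 fell under iR4, then 3 rose and 7 fell. DDIT3 rose by 3.65 ± 0.074 and fell by 2.95 ± 0.069, CREB5 rose by 3.56 ± 0.16 and fell by 3.10 ± 0.15, and ATF5 fell by 0.89 ± 0.061 and rose by 0.98 ± 0.061. AP-1 targets numbered 10 up and 4 down of 17, then 3 and 11, where the cytokine gene IL1A rose by 2.85 ± 0.082 and fell by 3.45 ± 0.089. EGR1 targets numbered 6 up and 2 down of 9, then 2 and 6, and CDKN1A rose by 2.04 ± 0.043 and fell by 1.78 ± 0.042.

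The effect of H-151 was compared between the experiments in a fit of all 24 libraries, as the log2 effect on iR4 minus that on R4KO_2_Vehicle. It was higher for 1 member, JUNB (0.29, edgeR adjusted p = 0.0231), where 23.7% of genes were higher, and lower for 6, where 27.0% were. ATF3 differed most, by -3.38 (edgeR adjusted p = 6.35e-15), followed by JUN (-1.44), EGR3 (-1.14), FOS (-0.96), IER3 (-0.88) and FOSL1 (-0.77). With R4KO_1_Vehicle as the untreated knockout, an alternative chosen after seeing the data, ATF3 differed by -4.11, FOSL1 by -1.81, JUN by -1.61, EGR3 by -1.51, IER3 by -1.30 and FOS by -0.65, all called, and JUNB was not called (0.10, edgeR adjusted p = 0.45). The differences for EGR1 (0.22) and EGR2 (0.64) were called with neither reference. Leaving out single libraries ended the call of JUNB without H151_iR4, iR4 or KO_2_H151 replicate 2 or R4KO_2_Vehicle replicate 3 (0.22 to 0.26) and that of EGR3 without H151_iR4 replicate 1 or 3, iR4 replicate 2 or 3 or R4KO_2_Vehicle replicate 1 (-1.09 to -0.87).

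**Figure D4:**
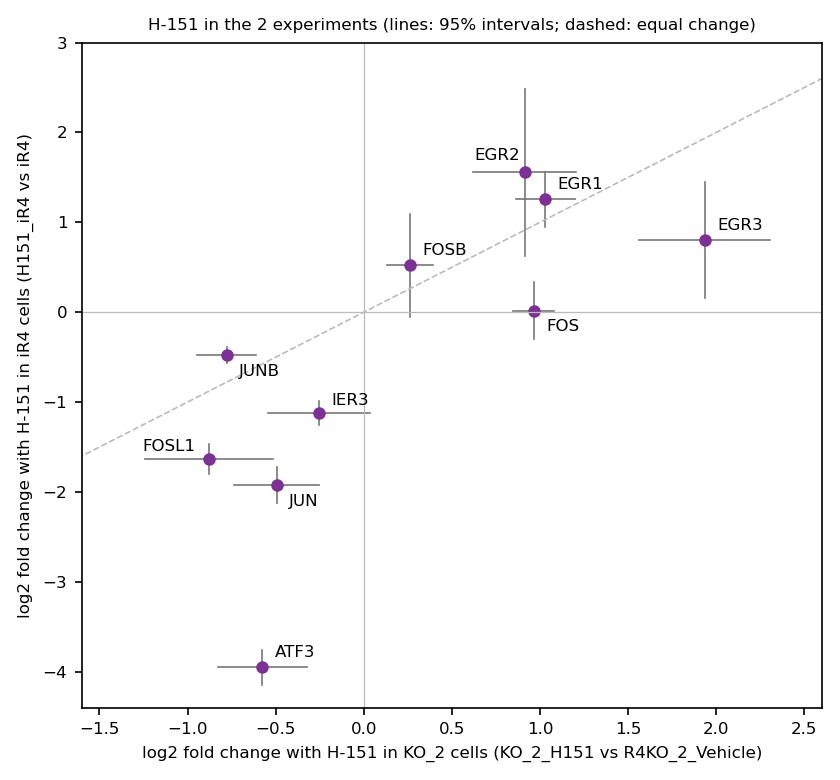
Log2 change of each member with H-151 in KO_2 cells (horizontal axis) and in iR4 cells (vertical axis), against R4KO_2_Vehicle and iR4, with 95% intervals; the dashed line marks equal effects. ATF3 lies furthest below the line, at -3.95 in iR4 cells and -0.58 in KO_2 cells, and EGR1 lies near it.

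The effect of iR4 against Vehicle was set beside that of each knockout against Ctrl_Vehicle in the same fit. Relative to R4KO_1_Vehicle it was higher for 6 members, where 18.0% of genes were, namely ATF3 (2.66), FOSL1 (2.0), IER3 (1.87), JUN (1.77), EGR3 (1.44) and JUNB (0.49), and lower for EGR1 (-0.62, edgeR adjusted p = 0.0167), 1 member where 17.0% were. Relative to R4KO_2_Vehicle it was higher for 6, where 11.1% were, namely ATF3 (1.94), JUN (1.60), IER3 (1.45), FOSL1 (0.96), FOS (0.58) and JUNB (0.30). By edgeR 0 were lower, where 9.13% of genes were (1 at an unadjusted p under 0.05, 0 by DESeq2). EGR1 (-0.43) and EGR3 (1.07) were not called there. EGR3 fell under iR4 as well, so its positive difference marks a smaller fall than in the knockout. Scaled over all 24 libraries, EGR3 averaged 2.51 CPM in Vehicle already, against 2.10 in R4KO_1_Vehicle and 2.71 in R4KO_2_Vehicle. FOS was not called under iR4, and its difference goes with its fall in R4KO_2_Vehicle. The EGR1 call against R4KO_1_Vehicle was lost without iR4 replicate 2 (-0.48) or Vehicle replicate 1 (-0.52) or 2 (-0.55), and those of FOS and JUNB against R4KO_2_Vehicle without any of 7 libraries for FOS (0.41 to 0.59) and any of 9 for JUNB (0.27 to 0.32), of 12 in that contrast.

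The baselines of the experiments were unlike. In Vehicle, all 10 members were lower than in Ctrl_Vehicle, where 25.9% of genes were lower, and 0 were higher by edgeR, where 25.6% were (0 at an unadjusted p under 0.05, 0 by DESeq2). The log2 differences ran from -0.59 for FOSL1 to -3.68 for FOSB, with EGR2 at -2.63, FOS at -2.12, EGR3 at -2.05 and EGR1 at -1.31. Experiment and group cannot be told apart in this contrast.

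The order of the groups differed by member. In the knockout experiment EGR1, EGR2 and EGR3 were highest in KO_2_H151, Ctrl_Vehicle and KO_2_BX_795 and lowest in the vehicle-treated knockouts, with overlap between KO_2_H151 and Ctrl_Vehicle for all 3. ATF3 was highest in R4KO_2_Vehicle, overlapped among KO_2_H151, KO_2_BX_795 and R4KO_1_Vehicle, and was lowest in Ctrl_Vehicle. For JUN every group overlapped the next in order. KO_2_H151 was the highest group for FOS and Ctrl_Vehicle for FOSB.

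Across the 24 libraries, with each experiment centred on its own mean of log2 CPM, JUN and ATF3 varied together (Pearson r = 0.914), as did EGR1 and EGR2 (0.892), FOSL1 and IER3 (0.838), FOSL1 and JUN (0.811) and EGR1 and EGR3 (0.791). JUN did not follow ATF3 in every group: KO_2_H151 and KO_2_BX_795 had ATF3 above Ctrl_Vehicle while JUN overlapped it. EGR1 varied against JUN (-0.746) and ATF3 (-0.721). FOS was nearly unrelated to ATF3 (0.006) and only weakly related to FOSB (0.383). Libraries of KO_2_H151 and KO_2_BX_795 had ATF3 within the range of R4KO_1_Vehicle and yet more EGR1 than any R4KO_1_Vehicle library. These values describe libraries that share groups and depth and carry no test.

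**Figure D5:**
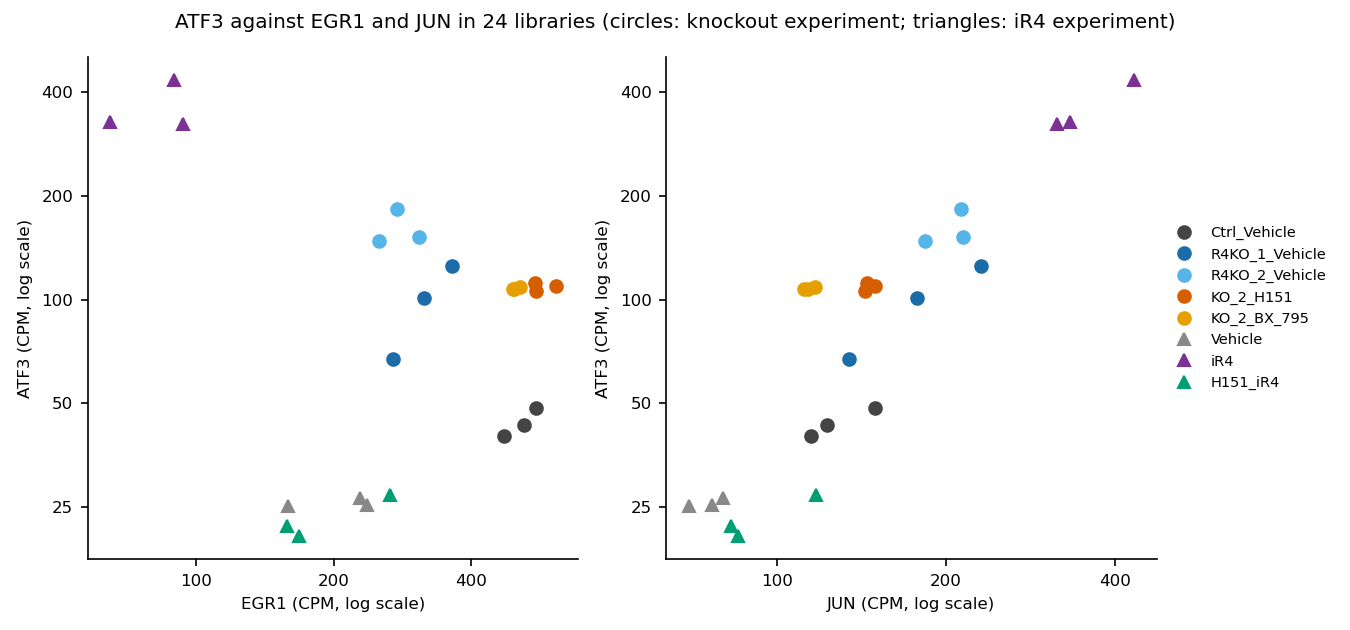
Level of ATF3 (vertical axes) against that of EGR1 (left) and JUN (right) in the 24 libraries, on log axes in CPM scaled over all 24 libraries, coloured by group, with circles for the knockout and triangles for the iR4 experiment. The 3 iR4 libraries have the most ATF3 and JUN and the least EGR1. In KO_2_BX_795 ATF3 is 107 to 109 CPM and JUN 112 to 117, against 40.2 to 48.5 and 115 to 149 in Ctrl_Vehicle.

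Among 10957 other genes with enough signal, those most like each member over the 24 libraries were taken by the same measure. The ranking depends on the measure: of the 30 genes so chosen, 3 per member, 16 were among the 3 closest by Spearman correlation and 2 by Pearson correlation of the group means, and the closest gene was the same by Spearman for 3 members. ATF3 was closest to DUSP5 (r = 0.987), a nuclear ERK phosphatase, PPP1R15A (0.985), the eIF2alpha phosphatase subunit of the integrated stress response, and IER5 (0.980). JUN was closest to CSRNP1 (0.961), FOSL2 (0.956) and F2RL1 (0.955), and FOSL1 to DAPK3 (0.936), SERPINB8 (0.934) and PPP2CB (0.933). EGR3 was closest to SRF (0.935), CCN2 (0.923) and KLF16 (0.909), EGR1 to CELF1 (0.943), and EGR2 to the transcript named NR4A1AS (0.814). FOS was closest to NR4A1 (0.897), PLAGL2 (0.860) and SDE2 (0.826). JUNB was closest to FBLIM1 (0.921) and IER3 to PHLDA1 (0.915), and FOSB had the weakest best match, CCNL1 (0.670).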

How the data were processed

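Each deposited file lists unnormalized counts of 1 library by Ensembl gene, per the file headers. Per the submitters' processing notes, reads were handled with HISAT2 2.2.1 and featureCounts 2.0.1 on hg38, with Trim Galore 0.6.4 and FastQC 0.11.9 also listed. Per the labels' protocols, TRIzol RNA was cleared of DNA with DNase I, and oligo(dT)-selected RNA was copied from random hexamers. The labels call the molecule genomic DNA, and the values were read as RNA. Annotation and strand setting: not given in the sources used here. No use was made of the 4 mouse libraries.

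The members and gene lists were chosen with earlier results of these data known. Groups came from the labels. The quasi-likelihood F test of edgeR 4.0.16 (R 4.3.3) was applied with TMM factors to genes kept by filterByExpr at a count of 10, and p-values were adjusted over all genes tested (Benjamini-Hochberg, threshold 0.05). The 15 and 9 libraries of the experiments were fitted apart, and all 24 together for comparisons across them. A member was called, or said to rise or fall, where its adjusted p passed the threshold. All 10 members passed the filter in both experiments. Of 15 comparisons, 6 were main. Standard errors were taken from the fold change and the square root of F.

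Named genes beyond the members are REXO4, PXDN, SLC12A3, ESM1, up to 3 called members with the lowest p per list and comparison with those running against the rest, and the genes most like each member; some genes that this rule names are not reported here. Likeness used log2 CPM with a prior count of 2 over genes averaging at least 2.

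The alternatives tried were DESeq2 1.42.0, RLE or upper-quartile factors, robust dispersion, no filter or 1 CPM in 3 libraries, a block for the replicate number, fits on fewer or more libraries, R4KO_1_Vehicle as the reference (for the H-151 difference, added after seeing the data) and leaving out each library. On simulated data with known changes, edgeR recovered 83.3% of genes changed 2-fold among 14146 for R4KO_1_Vehicle, 89.4% among 14150 for R4KO_2_Vehicle, 87.9% among 14158 for H-151 and 89.6% among 14131 for BX-795 in KO_2 cells, 97% among 13799 for iR4 and 96.9% among 13766 for H151_iR4. Of genes changed 1.5-fold it recovered from 65.7% (R4KO_2_Vehicle) to 84.8% (H-151 in KO_2 cells), with 4 to 16 false calls per comparison. Far fewer genes changed there than were called in the data, so these shares may not carry over.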

Additional observations from a re-analysis of the deposited data

Results flagged for a closer look

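The log2 effect of H-151 on iR4 cells minus that on KO_2 cells, tested in the fit of all 24 libraries with edgeR, differed for 7 members. It was -3.38 for ATF3, -1.44 for JUN, -1.14 for EGR3, -0.96 for FOS, -0.88 for IER3, -0.77 for FOSL1 and 0.29 for JUNB, where R4KO_2_Vehicle was the untreated KO_2 group. With R4KO_1_Vehicle in its place, an alternative chosen after seeing the data, JUNB was not called (0.10). The experiments also differ in their baselines and in the state that H-151 was added to, whose part in these differences was not tested.

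The effects of the knockouts on the same control differed for 5 members, tested as R4KO_2_Vehicle against R4KO_1_Vehicle with edgeR. The R4KO_2_Vehicle effect minus the R4KO_1_Vehicle effect was 1.04 for FOSL1, 0.71 for ATF3, 0.42 for IER3, -0.39 for FOSB and -0.32 for FOS. In the R4KO_1_Vehicle libraries FOSL1 ran from 30.2 to 81.5 CPM, ATF3 from 68.7 to 128 and IER3 from 70.3 to 145, each lowest in replicate 1 and highest in replicate 3.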

How the results depend on the processing

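With RLE factors and with the 1 CPM filter, 127 of 127 member values kept their direction and call, with DESeq2 113 did and 14 lost the call, and with robust dispersion 110 did and 17 lost it. With DESeq2, and likewise with robust dispersion, members higher with BX-795 than with H-151 fell to 1, members lower under iR4 to 1, members higher in H151_iR4 to 1 against iR4 and 0 against Vehicle, members higher in the H-151 difference to 0, and members lower in iR4 relative to the R4KO_1_Vehicle effect to 0. Without a filter, members higher numbered 5 in R4KO_2_Vehicle against R4KO_1_Vehicle, 4 in KO_2_H151 against Ctrl_Vehicle and 4 in the H-151 difference, and members lower 5 with BX-795 against H-151, 5 in KO_2_BX_795 against Ctrl_Vehicle and 1 in iR4 relative to the R4KO_2_Vehicle effect. With upper-quartile factors JUNB in R4KO_1_Vehicle turned to 0.027 and FOS in H151_iR4 against iR4 to -0.025, and 4 members were lower with BX-795 than with H-151. Fitted on the groups compared only, members lower numbered 6 with BX-795 against H-151, 5 in KO_2_BX_795 against Ctrl_Vehicle and 1 in iR4 relative to the R4KO_2_Vehicle effect, and members higher in KO_2_H151 against Ctrl_Vehicle 4. Fitted with all 24 libraries, members lower were 0 in R4KO_2_Vehicle against R4KO_1_Vehicle and 1 with BX-795 against H-151, and 0 were higher in H151_iR4 against Vehicle. Against R4KO_1_Vehicle, FOSB, FOSL1, ATF3 and IER3 with H-151 turned to -0.13, 0.16, 0.14 and 0.16, FOSL1 and ATF3 with BX-795 to 0.20 and 0.13, and members lower numbered 2 with each inhibitor. In the H-151 difference that reference, added after seeing the data, left 0 members higher, as JUNB lost its call. For fits on fewer or more libraries, with a library left out or against R4KO_1_Vehicle, all genes called were not counted. The causes of these changes were not tested.

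Over all genes, replicates with the same number deviated together little (correlations from -0.085 to 0.195), so the numbers were not read as pairs. These correlations do not speak for the members. Among them replicate 1 was lowest for 7 of 10 in Ctrl_Vehicle, 9 in R4KO_1_Vehicle and 8 in R4KO_2_Vehicle, but highest for 8 in KO_2_H151. With the replicate number as a block, 4 members were lower with BX-795 than with H-151 and FOS in H151_iR4 against iR4 was -0.013.

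Leaving out each library in turn, 815 of 906 member values kept direction and call. A fit without a library also has less power, so a lost call need not mean a smaller change. Without Ctrl_Vehicle replicate 1, EGR2 in KO_2_BX_795 lost its call against Ctrl_Vehicle although its change was larger. FOS in H151_iR4 against iR4 ran from -0.34 to 0.20 and FOS under iR4 from -0.090 to 0.20. FOSB ran from -0.27 to 0.79 in H151_iR4 against iR4 and from -0.14 to 0.0093 with BX-795. JUNB in R4KO_1_Vehicle ran from -0.17 to 0.092, JUN in R4KO_2_Vehicle against R4KO_1_Vehicle from -0.012 to 0.38, EGR3 in KO_2_H151 against Ctrl_Vehicle from -0.16 to 0.15, and ATF3 with BX-795 against H-151 from -0.031 to 0.0014. EGR1 ran from -0.35 to 0.076 in H151_iR4 against Vehicle and from -0.066 to 0.35 in the H-151 difference, where EGR2 ran from -0.55 to 1.02. Members higher ranged from 0 to 1 in the H-151 difference, 1 to 4 in H151_iR4 against iR4, 0 to 2 in H151_iR4 against Vehicle, 1 to 2 with BX-795 against H-151 and 2 to 6 in R4KO_2_Vehicle against R4KO_1_Vehicle. Members lower ranged from 0 to 1 in H151_iR4 against Vehicle and in iR4 relative to either knockout effect, 1 to 2 with BX-795 against H-151, 1 to 4 under iR4 and 1 to 3 in KO_2_BX_795 against Ctrl_Vehicle. Depth limits EGR2 in the iR4 experiment most, where a library held 12 to 107 of its counts.

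Among the gene lists, against R4KO_1_Vehicle the other immediate early genes lower with H-151 went from 11 to 6 and with BX-795 from 10 to 4, AP-1 partners higher with H-151 from 3 to 1, EGFR ligands higher with H-151 from 1 to 3 and lower with BX-795 from 4 to 2, AP-1 targets lower with BX-795 from 8 to 5, and SRF list genes higher with H-151 from 2 to 4. The last count was 5 without a filter, with all 24 libraries and with only the groups compared. With upper-quartile factors, kinases lower in H151_iR4 against iR4 went from 7 to 11, CREB and ATF genes lower under iR4 from 4 to 2, and EGR1 targets lower under iR4 and higher with H-151 added from 2 to 1 each, as with all 24 libraries. Without a filter, other immediate early genes higher in H151_iR4 against iR4 went from 2 to 5, AP-1 partners lower in R4KO_1_Vehicle from 0 to 1, and EGFR ligands lower in R4KO_2_Vehicle from 1 to 2, as with all 24 libraries. Leaving out each library in turn, 559 of 576 list counts stayed within 1.5 times.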
